A study of Mus musculus with 2 samples.

Results

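Cholesterol is made by an enzyme chain that leads from acetyl-CoA through mevalonate and squalene to lanosterol and then to cholesterol, and it leaves cells mainly through membrane transporters. The transcription factors SREBP-1 and SREBP-2, encoded by Srebf1 and Srebf2, are held in the endoplasmic reticulum by Scap and the Insig proteins while sterol is plentiful. When sterol runs low they are cut free and bind promoters of the synthesis genes, often beside the factors NF-Y and Sp1. Proliferating T cells are known to need this supply for new membranes, while the nuclear receptors LXR turn on the efflux transporters when sterol is in excess. The 27 genes described here were taken by name from this pathway, out of 21851 protein-coding genes of the annotation. They comprise 18 synthesis genes, 6 regulators and 3 transport genes, and all 27 were found in the annotation.

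Open chromatin was mapped by ATAC-seq, in which a transposase cuts and tags accessible DNA, in primary T helper 2 (Th2) cells of mouse strain C57BL/6NJ. There was 1 group, with 2 biological replicates per the labels, and neither a treatment, a genotype change nor a control; age and sex are not stated. The replicates are separate biosamples under a shared donor record, and their spread may therefore be technical. The lists held 51557 regions in replicate 1 and 60891 in replicate 2, and 44136 joined regions were open in both. Each region carries the authors' fold enrichment, the ratio of the signal at its summit to local background. Read depth is not stated. The count stacked at a summit, here called the pileup, was recovered from the deposited values and had medians of 31 in replicate 1 and 37 in replicate 2. The region names contain the words ASTARR and insert, which no source used here explains, and whether the fragments passed through a cloned library was not tested. Of the marker genes for the labelled cell type, 6 of 6 general T helper genes and 6 of 6 Th2 genes had an open promoter in both replicates, against 0 of 10 marker genes of other cell types. Each pair of fold enrichments below lists replicate 1 before replicate 2, and all coordinates are on mm10.

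Promoter sequences of 6 of the 27 genes are shown first, with matches to motifs described further on. Each runs from 250 bases before to 50 bases after a RefSeq start site (GRCm38.p6), in the direction of the gene. Capitals mark matches, on either strand, to the sterol regulatory element TCACNCCAC bound by SREBP, the NF-Y motif CCAAT, the Sp1 motif GGGCGG and the E-box CACGTG. Hmgcs1 was taken because it was the only one of the 21 searched promoters with the sterol regulatory element. The other 5 were chosen after their values were seen: Mvk and Msmo1 for repeated NF-Y motifs, Acat2 for the highest fold enrichment, and Srebf2 and Abca1 as a regulator and a transporter.
Hmgcs1 (chr13:119690101-119690400, + strand): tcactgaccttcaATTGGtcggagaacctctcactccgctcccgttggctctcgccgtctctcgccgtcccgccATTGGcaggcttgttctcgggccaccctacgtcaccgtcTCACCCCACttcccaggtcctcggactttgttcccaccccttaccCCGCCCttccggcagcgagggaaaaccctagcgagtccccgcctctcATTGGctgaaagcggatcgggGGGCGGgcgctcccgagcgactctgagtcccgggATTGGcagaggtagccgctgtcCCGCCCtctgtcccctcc
Mvk (chr5:114444019-114444318, + strand): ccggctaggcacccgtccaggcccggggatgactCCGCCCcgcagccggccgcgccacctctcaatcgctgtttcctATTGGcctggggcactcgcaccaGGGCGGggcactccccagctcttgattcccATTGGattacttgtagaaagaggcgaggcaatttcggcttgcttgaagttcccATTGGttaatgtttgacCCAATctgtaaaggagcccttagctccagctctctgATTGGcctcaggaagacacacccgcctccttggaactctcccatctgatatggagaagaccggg
Msmo1 (chr8:64733529-64733828, - strand): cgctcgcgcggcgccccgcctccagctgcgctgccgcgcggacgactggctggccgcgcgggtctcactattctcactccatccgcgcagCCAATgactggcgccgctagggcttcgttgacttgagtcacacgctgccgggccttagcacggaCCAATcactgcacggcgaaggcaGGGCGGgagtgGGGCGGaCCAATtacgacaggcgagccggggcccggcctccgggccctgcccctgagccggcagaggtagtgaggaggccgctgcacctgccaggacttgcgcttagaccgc
Acat2 (chr17:12960676-12960975, - strand): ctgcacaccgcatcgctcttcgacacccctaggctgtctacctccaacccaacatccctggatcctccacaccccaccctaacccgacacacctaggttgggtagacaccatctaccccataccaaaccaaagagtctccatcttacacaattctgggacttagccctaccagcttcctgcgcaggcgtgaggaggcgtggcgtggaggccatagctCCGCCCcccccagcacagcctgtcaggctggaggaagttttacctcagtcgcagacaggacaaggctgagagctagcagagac
Srebf2 (chr15:82147019-82147318, + strand): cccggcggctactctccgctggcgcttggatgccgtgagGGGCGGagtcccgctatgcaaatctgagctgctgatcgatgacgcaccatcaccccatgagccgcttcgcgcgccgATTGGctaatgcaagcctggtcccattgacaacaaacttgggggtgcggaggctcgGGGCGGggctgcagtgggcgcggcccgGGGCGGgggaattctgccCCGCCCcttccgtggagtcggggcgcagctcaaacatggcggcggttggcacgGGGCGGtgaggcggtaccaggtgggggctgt
Abca1 (chr4:53159846-53160145, - strand): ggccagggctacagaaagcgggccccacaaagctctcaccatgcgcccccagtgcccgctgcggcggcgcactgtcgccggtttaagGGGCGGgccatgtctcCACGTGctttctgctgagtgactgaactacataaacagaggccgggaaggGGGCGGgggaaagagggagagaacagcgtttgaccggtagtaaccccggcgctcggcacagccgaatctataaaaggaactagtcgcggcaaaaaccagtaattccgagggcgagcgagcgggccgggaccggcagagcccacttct
The Hmgcs1, Mvk and Msmo1 promoters hold 4, 5 and 3 copies of the NF-Y motif, while those of Acat2 and Abca1 hold 0 in this window.

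Every gene of the set had an open promoter in these Th2 cells. A promoter region, meaning a joined region centred within 1 kb of a protein-coding start site, was present at 27 of 27 genes, against 57.2% of the 21824 other protein-coding genes. This held for 18 of 18 synthesis genes, 6 of 6 regulators and 3 of 3 transport genes. By role, the median promoter fold enrichment was 13.7 and 15.4 for synthesis genes, 10.7 and 12.4 for regulators and 7.89 and 8.14 for transport genes, against 9.67 and 10.9 for the 12487 other open promoters. Averaged over the replicates, 12 of 18 synthesis promoters lay above 12.8, the 75th percentile of the other open promoters. Only 3 of the 18, those of Pmvk, Nsdhl and Tm7sf2, lay under their median of 10.3. All 27 strongest promoter regions covered an annotated start site, as did 95.5% of those of other genes. With 1 group and no control these are descriptions of an open state, and no test between gene lists was made.

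**Figure D1:**
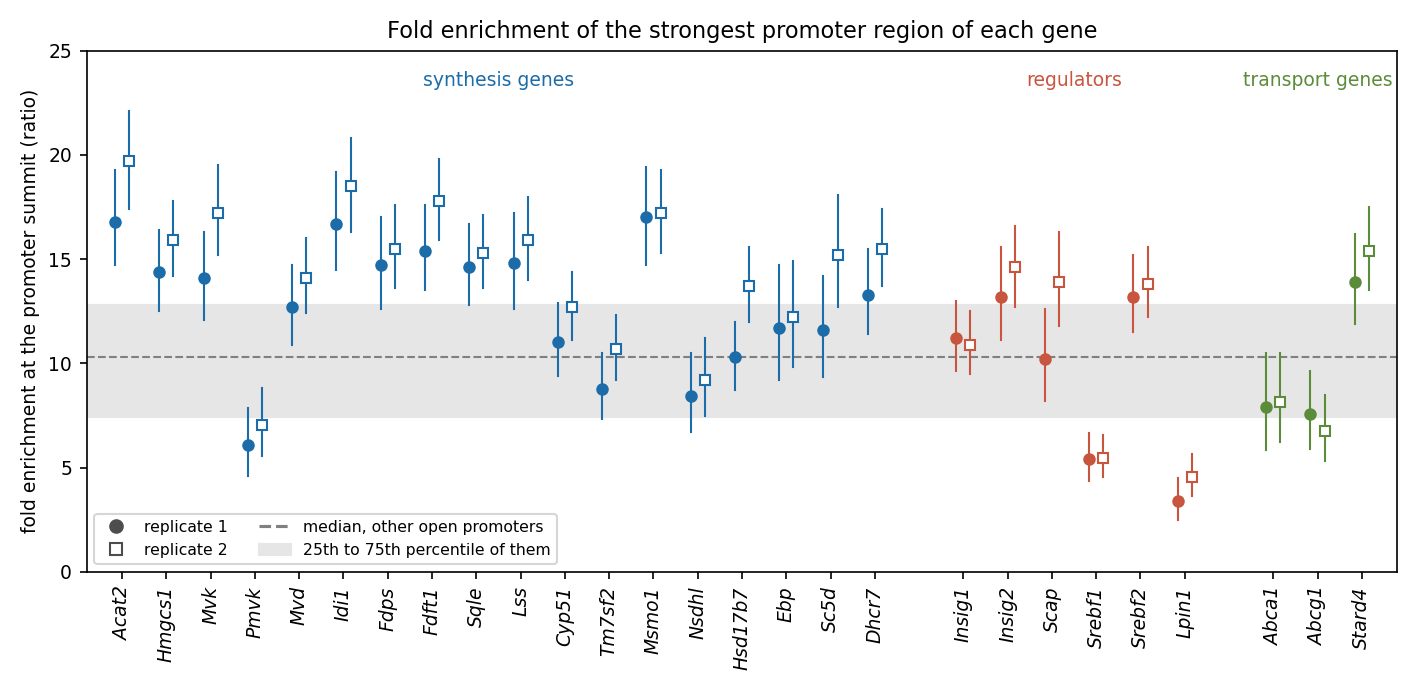
Fold enrichment (y axis, ratio of summit signal to local background) of the strongest promoter region of each of the 27 genes, grouped by role; filled circles are replicate 1, open squares replicate 2, and bars are exact 95% Poisson intervals of the summit count, which cover counting error only. The dashed line and grey band are the median (10.3) and the 25th to 75th percentile (7.41 to 12.8) of 12487 other open promoters; most synthesis genes sit above the band, while Srebf1, Lpin1, Pmvk and Abcg1 lie below it in mean fold enrichment.

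In the mevalonate part of the chain, 6 of 7 promoters were above the median of other open promoters, and the median fold enrichment was 14.4 and 15.9. Acat2, whose product joins acetyl-CoA units at the entry to the pathway, had the strongest promoter of the set, with 16.8 and 19.7 at chr17:12960046-12961062. Its summit pileups were 210 and 273 counts, and the exact 95% Poisson intervals of the fold enrichment ran from 14.7 to 19.3 and from 17.4 to 22.1. This placed it at the 99.7th and 99.9th percentile of the regions of each list. Acat3, a close paralog whose start lies in the Acat2 window, had a promoter region of 4.17 and 4.11. Idi1, the isomerase that makes the allylic building block of the chain, followed with 16.7 and 18.5 at chr13:8885243-8886242. Hmgcs1, the cytosolic synthase that makes HMG-CoA, had 14.4 and 15.9 at chr13:119689939-119690973. Relative to the RefSeq start, its summit lay 136 bp upstream and its sterol regulatory element began 137 bases upstream.

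The kinase gene Mvk had 14.1 and 17.2 at chr5:114443711-114444908, and the decarboxylase gene Mvd had 12.7 and 14.1 at chr8:122443064-122444719, a region centred in intron 1 of the overlapping gene model Gm20388. Fdps, which builds farnesyl diphosphate, had 14.7 and 15.5 at chr3:89101344-89102502. Pmvk, the kinase between Mvk and Mvd in the chain, stood apart with 6.06 and 7.04 at chr3:89458772-89459781. Its intervals, 4.59 to 7.86 and 5.55 to 8.82, lay wholly below those of Mvk (12.1 to 16.3 and 15.2 to 19.5) and of Mvd (10.9 to 14.7 and 12.4 to 16.0). Consecutive steps of the mevalonate route thus had promoters of unequal openness in both replicates.

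The squalene part was uniformly open. Fdft1, the squalene synthase, had 15.4 and 17.8 at chr14:63177568-63178622, with the highest pileups of the set, 223 and 333 counts. Sqle, the epoxidase that oxidises squalene, had 14.6 and 15.3 at chr15:59314334-59315756. Lss, which closes the ring system to give lanosterol, had 14.8 and 15.9 at chr10:76530933-76532123. Their mean fold enrichments spanned 15.0 to 16.6, a narrower range than the 6.55 to 18.3 of the mevalonate part.

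The 8 genes between lanosterol and cholesterol were more varied, with a median of 11.3 and 13.2. Msmo1, the methylsterol oxidase, was highest with 17.0 and 17.2 at chr8:64733149-64734039. Dhcr7, the reductase that yields cholesterol itself, had a pair of promoter regions about equally open, 13.8 and 14.4 at chr7:143822341-143823586 and 13.3 and 15.5 at chr7:143829452-143830454, each over a separate start site. Sc5d, a sterol desaturase, had 11.6 and 15.2, and Hsd17b7, a sterol ketone reductase, had 10.3 and 13.7. Cyp51, the lanosterol demethylase, had 11.0 and 12.7, and the sterol isomerase gene Ebp had 11.7 and 12.2.

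The weakest of these were Tm7sf2, a sterol reductase, with 8.78 and 10.7 at chr19:6067039-6068269, and Nsdhl, a sterol dehydrogenase, with 8.42 and 9.19 at chrX:72917713-72918809. Lbr, which encodes a nuclear envelope protein with the same sterol reductase activity as Tm7sf2, had 12.5 and 12.9; it is named here because of this shared activity, after its values were seen. In the Ebp region the summit lay 556 bp downstream of the start site, in exon 1. Over all 27 strongest promoter regions the summit lay a median of 103 bp from the nearest start site, against 80 bp for other open promoters.

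Among the regulators, the promoter of Srebf2 was more open than the annotated coding promoter of Srebf1. Srebf2, whose product chiefly drives cholesterol synthesis, had 13.2 and 13.8 at chr15:82146265-82148033. Srebf1, whose products lean toward fatty acid synthesis, had 5.40 and 5.48 at chr11:60219752-60221100. The intervals of the fold enrichment, 4.34 to 6.65 and 4.54 to 6.56 for Srebf1 and 11.5 to 15.2 and 12.2 to 15.6 for Srebf2, did not overlap in either replicate. This value for Srebf1 is that of its annotated protein-coding start alone, and other starts of the gene are described below. Scap, the escort of both factors, had 10.2 and 13.9, and the genes of its anchors Insig1 and Insig2 had 11.2 and 10.9, and 13.2 and 14.6. Lpin1, a phosphatidate phosphatase that in mouse also restrains SREBP activity in the nucleus, had the lowest value within 1 kb of a coding start, 3.40 and 4.53 at chr12:16589402-16589867, on 45 and 80 counts. With a 2.5 kb limit its value was 13.9 (mean of both replicates), from a region described below.

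The efflux transporters had weaker promoters than almost all synthesis genes. Abca1, which loads cholesterol onto apolipoprotein A-I, had 7.89 and 8.14 at chr4:53158693-53160114, and Abcg1, which passes it to high-density lipoprotein, had 7.58 and 6.77 at chr17:31057441-31058301. In mean fold enrichment 17 of 18 synthesis promoters lay above both, the exception being Pmvk. The Abca1 pileups were 46 and 58 counts, which gave intervals of 5.82 to 10.5 and 6.21 to 10.5. Those intervals overlapped the ones of Nsdhl (6.70 to 10.5 and 7.47 to 11.2), so Abca1 and the weakest synthesis genes cannot be ordered beyond counting error. The Abca1 summit lay 1075 bp inside the gene, in intron 1, although the region reached back over the start site. Stard4, a soluble carrier that moves sterol between membranes, had 13.9 and 15.4 on chromosome 18 at 33213280 to 33214419, in the range of the synthesis genes, of which 9 lay above it.

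Further genes of the pathway were surveyed from a separate list. Uptake and lysosomal handling genes with a promoter region had a median fold enrichment of 12.3 and 13.5. Values within this list, looked at after the median was seen, were unequal. The lipoprotein receptor genes Lrp8, Vldlr and Scarb1 had means of 9.55, 5.54 and 9.78, under the median of 10.3 of other open promoters. Npc1, Npc2, Lipa and Mylip had means of 12.9, 17.8, 15.2 and 14.3. Efflux genes and their nuclear receptors had a promoter region at 3 of 4, again set against 57.2% of other genes, with a median of 4.59 and 6.17, and the exception was Apoe, an apolipoprotein gene. Of the receptor genes themselves, named after their values were seen, Nr1h2 (LXRβ) had 6.59 and 10.4 and Nr1h3 (LXRα) had 3.93 and 6.17. Storage genes had 2 of 2 and sterol-sensing genes 5 of 5 with a median of 10.2 and 12.7. Lbr together with genes of the side branches had 4 of 4, with a median of 12.7 and 13.1.

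Replicate 2 gave the higher promoter fold enrichment at 25 of 27 genes, the exceptions being Insig1 and Abcg1. Replicate 2 over replicate 1 gave a median ratio of 1.11, and the ratio ranged from 0.893 at Abcg1 to 1.37 at Scap. The same median, 1.11, was found over all other open promoters, with 5th and 95th percentiles of 0.881 and 1.41. At 27 of 27 genes the counting intervals of the replicates overlapped. Promoter pileups of the set ranged from 45 to 223 counts in replicate 1 and from 58 to 333 in replicate 2, and the replicates' summits lay a median of 9 bp apart.

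Several of these genes have alternative starts, and their openness was unequal. The 27 genes have 58 protein-coding start sites in the annotation, of which 53 lay within 1 kb of the centre of an open region. Of 15 genes with 2 or more start sites, 11 had every site so placed. The 5 sites without a region belonged to Pmvk, Fdft1, Insig2 and Lpin1, which lacked it at the gene's 5′ end while a site further inside was open. Taking the 5′ end as the only start site therefore left 23 of 27 genes with a promoter region. At Pmvk, on chromosome 3, RefSeq lists both the start without a region at 89454541 and the open start at 89459571. At Insig2, on chromosome 1, the site without a region lay at 121332589 and the open RefSeq starts at 121328025 and 121327679.

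Srebf1 showed the most complex arrangement. The gene is known to be read from separate promoters that give SREBP-1a and SREBP-1c, and RefSeq lists 3 start sites, which are not paired here with those names. All 3 lay in open regions. The region over the outermost, at chr11:60222303-60223287, averaged 8.34, and the region over the innermost, at chr11:60209429-60211079 in intron 1, averaged 10.6 over the replicates. Only the middle start is a protein-coding start of the annotation used, and it had the lowest fold enrichment of the 3, a mean of 5.44. With the wider promoter definition of 2.5 kb the Srebf1 value became 8.34 (mean of both replicates). At Lpin1 the strongest region lay in intron 1, 1.88 kb upstream of the internal start, at chr12:16591181-16592133 with 13.2 and 14.5. It lies outside the 1 kb limit, so with 2.5 kb the Lpin1 promoter value became 13.9 in place of 3.97, while the 5′ starts of the gene had no open region.

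**Figure D2:**
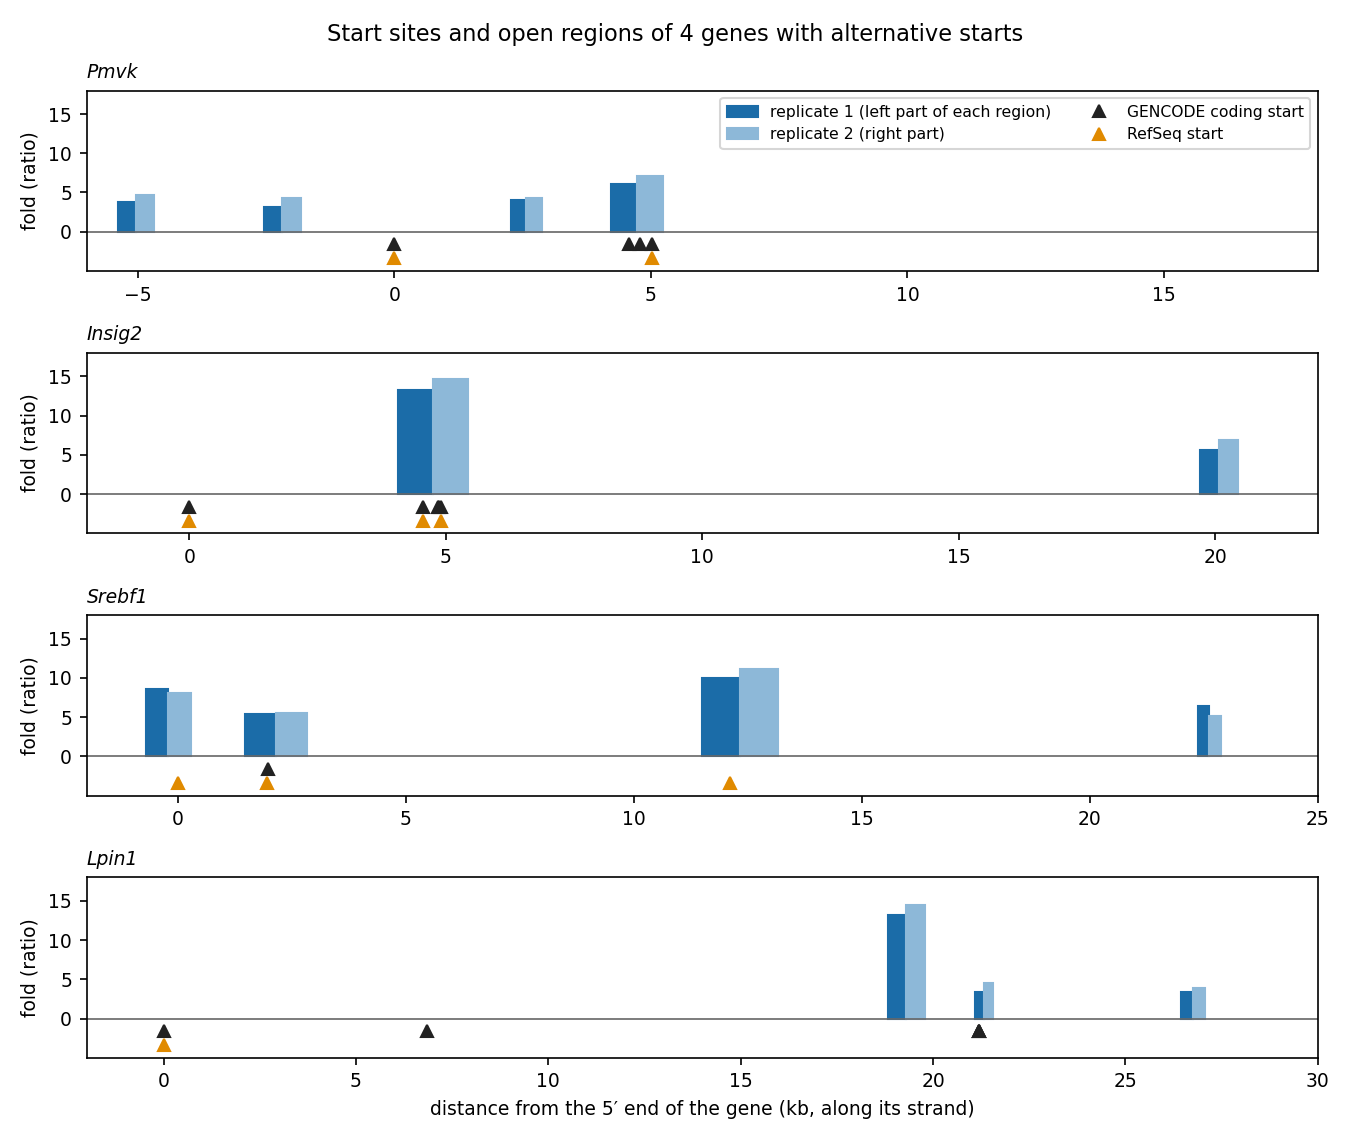
Open regions (boxes; height is fold enrichment, left part replicate 1, right part replicate 2) and start sites (triangles below: black GENCODE protein-coding starts, orange RefSeq starts) of Pmvk, Insig2, Srebf1 and Lpin1; the x axis is the distance from the 5′ end of the gene in kb. At Pmvk, Insig2 and Lpin1 the start at 0 kb has no region over it, whereas at Srebf1 all 3 RefSeq starts do.

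Outside promoters the set held 45 distal regions, meaning regions that overlap the gene body plus 20 kb on each side and are centred more than 1 kb from every protein-coding start. Synthesis genes had fewer per gene than regulators and transport genes. Synthesis genes had a median of 1 (21 regions over 18 genes), regulators 2.5 (16 over 6) and transport genes 2 (8 over 3), against 1 for all other genes and 2 for other genes with an open promoter. The regulator count includes the Srebf1 regions over its outermost and innermost RefSeq starts, which are not protein-coding starts of the annotation used. With a 2.5 kb promoter the regulator median was 2. At least 1 distal region was found near 58.9% of all other protein-coding genes. Among the members 7 of 27 (25.9%) had none, close to the 23.6% of other genes with an open promoter. All 7 were synthesis genes: Acat2, Idi1, Sqle, Cyp51, Tm7sf2, Nsdhl and Ebp. Their promoters ranged in mean fold enrichment from 8.81 at Nsdhl and 9.73 at Tm7sf2 to 17.6 at Idi1 and 18.3 at Acat2. Gene length sets the window, and per 10 kb of window the medians were 0.173 for synthesis genes, 0.377 for regulators and 0.183 for transport genes, against 0.147 for all other genes and 0.215 for those with an open promoter. The 8 genes after lanosterol had only 4 distal regions among them. The longer list of replicate 2 alone left 3 genes without a distal region, and that of replicate 1 alone left 6.

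**Figure D3:**
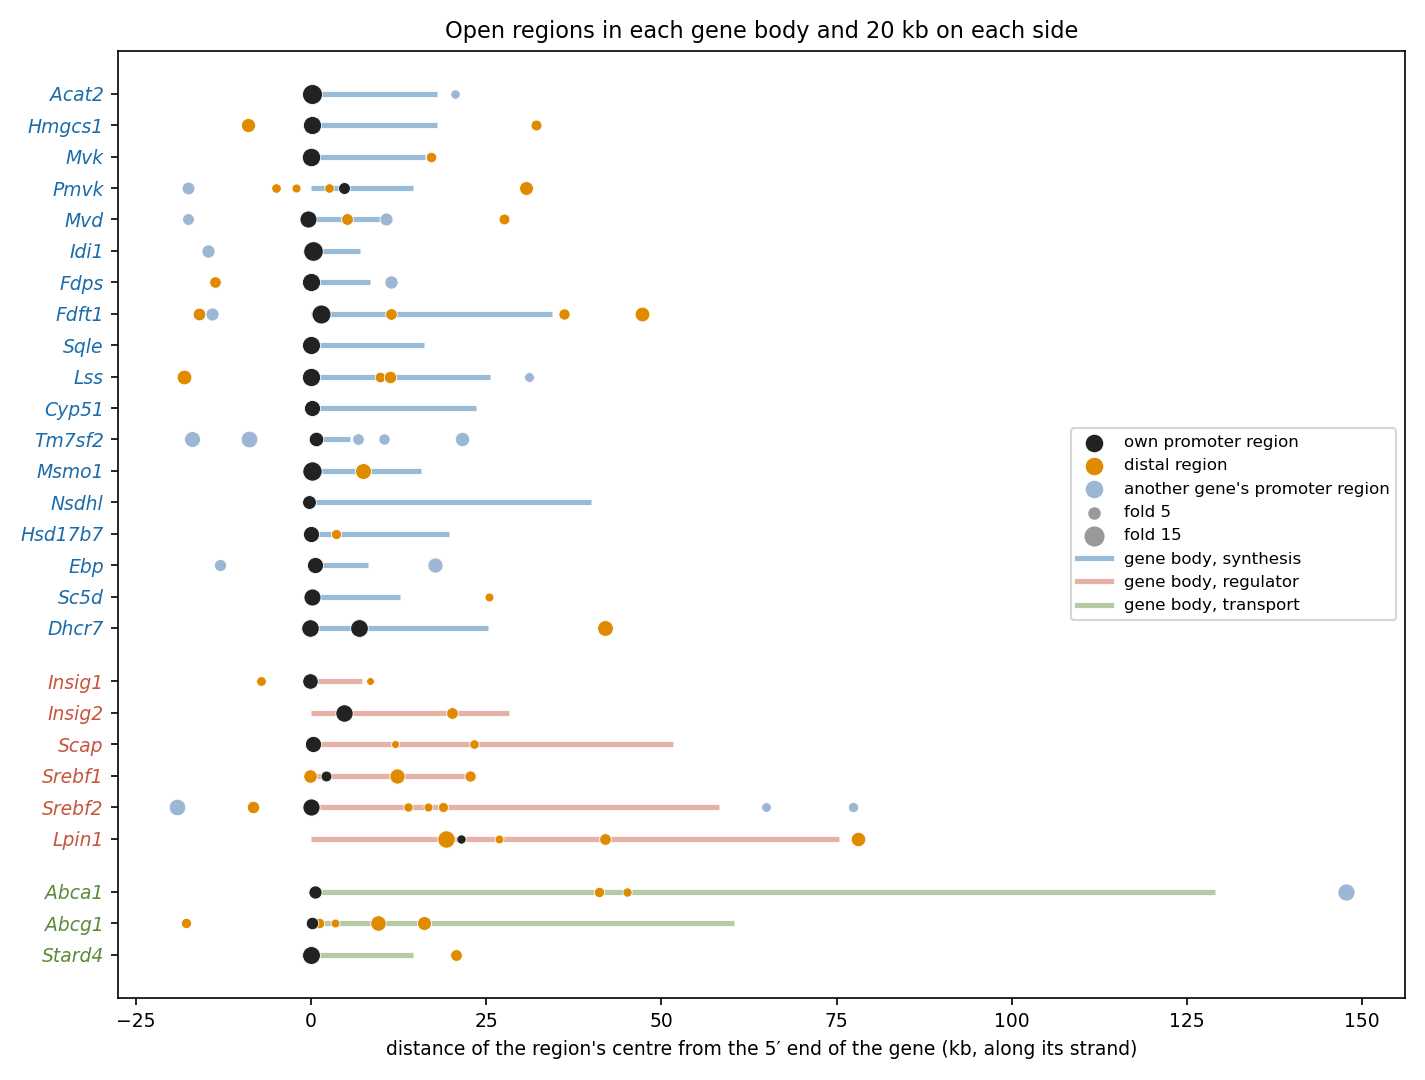
Regions open in both replicates in each gene body and 20 kb on each side; the x axis is the distance of the region's centre from the gene's 5′ end in kb along its strand, bars are gene bodies, and dot area is proportional to mean fold enrichment. The number of orange distal dots varies within each role: among synthesis genes Pmvk and Fdft1 carry 4 each and 7 genes carry 0, among regulators Srebf2 and Lpin1 carry 4 each and Insig2 carries 1, and among transport genes Abcg1 carries 5 and Stard4 1.

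Of the 45 distal regions 28 lay in introns, 3 in exons and 14 between genes, and 40 were nearer to a start site of their member than to that of any other gene. Their median mean fold enrichment was 5.74, against 5.78 over 24828 distal regions in the windows of other genes, and their median width was 599 bp, against 618 bp. They ranged from 2.86 to 13.2 in replicate 1 and from 2.76 to 14.5 in replicate 2. The strongest was the Lpin1 intron 1 region described above. Next came Msmo1, whose intron 2 held a region at chr8:64725886-64726753 with 9.24 and 13.9, on 59 and 144 counts; its intervals, 7.07 to 11.9 and 11.7 to 16.4, barely overlapped. A region 34.8 kb downstream of the nearest Dhcr7 start, at chr7:143864248-143865858, had 10.7 and 12.1, and lay only 1.80 kb from a start of the gene Gm498.

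At Abcg1 2 of the 5 distal regions had higher mean fold enrichments than the promoter. Intron 2 held a region at chr17:31066877-31067560 with 9.16 and 12.8 and another at chr17:31073183-31074478 with 8.01 and 9.82, against 7.58 and 6.77 at the promoter. Counting intervals of the second of these (6.25 to 10.1 and 8.09 to 11.8) overlapped those of the promoter (5.89 to 9.61 and 5.32 to 8.50). The interval of the first overlapped that of the promoter in replicate 1 (6.87 to 12.0) but not in replicate 2 (10.4 to 15.7). The remaining 3 had mean values of 4.83, 5.12 and 3.65. Abca1, by contrast, had only 2 distal regions in a window of 169 kb, both in intron 5, with 3.65 and 4.31 and with 5.15 and 4.76. The distal region also exceeded the promoter at Pmvk, where a region 25.7 kb downstream, at chr3:89484988-89485545, had 8.11 and 9.48. Its intervals (5.77 to 11.1 and 7.19 to 12.3) overlapped those of the Pmvk promoter.

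Of the other strong distal regions, those in the Fdft1 and Lss windows lay inside neighbouring genes. In the Fdft1 window a region at chr14:63131840-63132749, with 10.1 and 9.98, lay in intron 1 of the protease gene Ctsb and 9.83 kb from a Ctsb start. In the Lss window a region at chr10:76513160-76513639, with 9.53 and 10.4, lay in intron 28 of Mcm3ap, 18.2 kb upstream of Lss. Lpin1 had a further region at chr12:16531890-16533857 with 9.09 and 10.2, between genes past its 3′ end, and Hmgcs1 had an intergenic region 9.01 kb upstream, at chr13:119681031-119681844, with 9.61 and 8.75. Which gene such a region acts on cannot be read from ATAC-seq. Among the other pathway genes the most distal regions were found at Scarb1, a lipoprotein receptor, with 6. Npc2, a lysosomal sterol carrier, Soat1 and Soat2, which esterify cholesterol for storage, and Rnf145, a ubiquitin ligase, followed with 4 each.

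NF-Y and Sp1 motifs were frequent in the promoter sequences of the synthesis genes. RefSeq promoters were matched for 22 of 27 genes, and for 21 the promoter lay within 2 kb of the summit of the open region and was searched on both strands. The NF-Y motif CCAAT was present in 13 of 15 synthesis promoters (86.7%), all but Acat2 and Pmvk, and in 2 of 5 regulators (40%), Insig1 and Srebf2, against 38.3% of 9548 other open promoters and 37.4% of all 32851 RefSeq promoters. At least 2 copies were present in 9 of 15 synthesis promoters (60%), against 15.3% of other open promoters. Of 31 copies in the synthesis promoters 28 lay upstream of the start site, and 20 of these lay within 100 bases upstream of it. Each of the 13 synthesis promoters with the motif had a copy in that 100-base stretch. The Sp1 motif GGGCGG was present in 14 of 15 synthesis promoters (93.3%) and 5 of 5 regulators, against 69.6% of other open promoters. Both motifs together were present in 13 of 15 synthesis promoters (86.7%), against 26.3%.

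**Figure D4:**
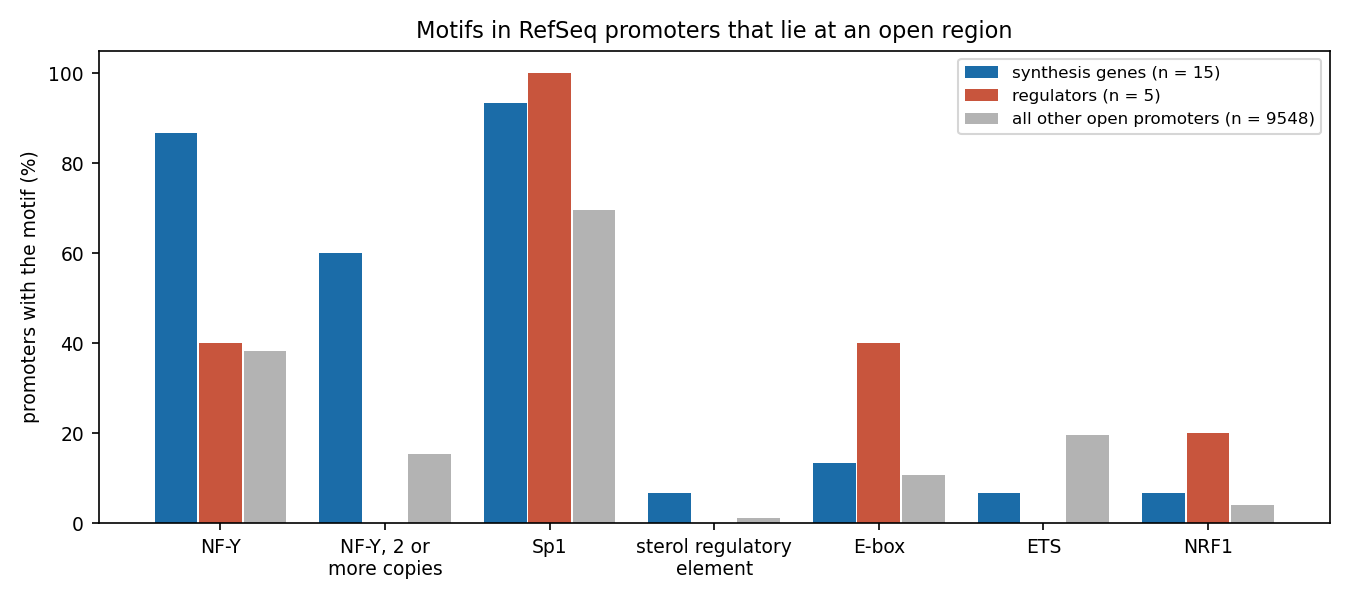
Share of RefSeq promoters at open regions (y axis, %) that hold each motif on either strand, for 15 synthesis genes (blue), 5 regulators (red) and 9548 other open promoters (grey); a missing bar is 0%. The NF-Y motif stands at 86.7% in synthesis genes against 38.3% in other open promoters, while the ETS motif stands at 6.67% against 19.5%.

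The sterol regulatory element TCACNCCAC was found in 1 of 21 promoters, that of Hmgcs1, against 1.04% of other open promoters. Without its first base, a change made after the data were seen, it was found in 3 of 21, Acat2, Hmgcs1 and Insig1, against 6.20%. SREBP also binds sequences that differ from this form, so these counts cover only these letters in this window. The ETS motif CCGGAAG was present in 1 of 21 promoters, again Hmgcs1, against 19.5% of other open promoters. The E-box CACGTG was present in 5 of 21 (Hsd17b7, Sc5d, Insig1, Scap and Abca1), against 10.6%, and the NRF1 motif GCGCATGCG in 2 of 21 (Mvd and Scap), against 4.03%. Base composition was similar to that of other open promoters, with a median GC content of 62.7% against 62% and a CpG observed-to-expected ratio of 0.782 against 0.791. Among the 21 searched promoters the lowest CpG ratios, 0.413 at Acat2 and 0.445 at Idi1, belonged to the genes with the highest mean promoter fold enrichments. The other values did not follow this order. The next lowest ratio, 0.478, was at Srebf1 with a mean fold enrichment of 5.44, and Msmo1, with a mean of 17.1, had 0.935.

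In windows of 300 bp centred on the promoter summits, which overlap the RefSeq promoters and are not separate evidence, the NF-Y motif was present in 14 of 15 synthesis genes (93.3%), now with Acat2, against 36.4% of other open promoters. The summit lay upstream of the RefSeq start at 11 of 21 genes and downstream of it at 10, from 369 bp upstream at Pmvk to 1076 bp downstream at Abca1. A protein-coding neighbour on the opposite strand started within 1 kb at 3 of 27 genes, against 8.99% of other genes. These were Mvk with Mmab (209 bp apart), Nsdhl with Cetn2 (146 bp) and Dhcr7 with Nadsyn1 (326 bp), and at Mvk, Nsdhl and the outer of the Dhcr7 promoter regions the openness of the gene and of its neighbour cannot be told apart. The inner Dhcr7 region, the stronger by mean fold enrichment, covers start sites of Dhcr7 alone.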

How the data were processed

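ATAC-seq regions of 2 Th2 replicates on mm10 were analysed as deposited. Per the file headers, each list was made from an alignment of its own library, so regions were not called on pooled reads. For the aligner, the region caller and their versions, the sources used here give nothing. The deposited values read were the authors' fold enrichment (a ratio), their −log10 p-values and q-values, and their score, which is 10 times −log10 q capped at 1000 and was not used further.

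Regions of both replicates overlapping by at least 1 bp were joined. Start sites were those of protein-coding transcripts in GENCODE M21 basic, on 21 chromosomes. A gene's promoter value is its strongest promoter region by mean fold enrichment. Pileups were recovered from fold enrichment and p under a Poisson model with a pseudocount of 1 (tolerance 0.001 in −log10 p), which returned whole counts for at least 99.99% of regions in each list. Exact 95% intervals of the pileup hold the background fixed and cover counting error only. Joining, assignment and recovery were tested on simulated data. Python 3.11.15, pandas 2.3.3, numpy 2.4.6, scipy 1.17.1 and pysam 0.24.0 were used. Sequences are from RefSeq (GRCm38.p6), and 329 of 329 checked against the genome were identical. None from chromosome 18 was searched.

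The genes, lists and choices were made with earlier results of these data known. All 27 genes were named. Of other pathway genes those without a promoter region and the 3 with most distal regions, ties included, were named. The strongest distal region of a gene was named where it exceeded the gene's promoter. The 10 strongest distal regions over the 27 genes were named too, and further ones were given at Srebf1, Abca1 and Abcg1. Some genes of the pathway are not reported here.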

Additional observations from a re-analysis of the deposited data

How the results depend on the processing

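The presence of a promoter region at all 27 genes held with either replicate alone, with −log10 q of at least 10 in each list, with 50% overlap, with any overlap of the 1 kb window, with a 2.5 kb promoter and with the starts of every transcript (the last chosen after seeing the data); with the 5′ end alone it was 23. The share of all other genes with a promoter region, 57.2%, was 58.6 to 59.3% with 1 replicate left out, 51.0% with −log10 q of at least 10, 55.2% with 50% overlap, 58.3% with any overlap of the window, 60.1% with 2.5 kb and 53.9% with the 5′ end. The median promoter fold enrichment of the regulators, 11.6, was 12.8 with 2.5 kb, where Lpin1 and Srebf1 take stronger regions. Of 158 single-gene promoter values under alternatives that keep both replicates, 3 moved beyond the SD between replicates: Srebf1 was 8.34 with 2.5 kb and with the 5′ end, and Lpin1 was 13.9 with 2.5 kb.

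Median distal counts of the gene lists, and the number of genes with none, stayed within the limits set for a move under 3 choices. These were replicate 1 alone, 50% overlap and a 2.5 kb promoter. All of these values moved with replicate 2 alone and with 100 kb on each side. Only some moved with −log10 q of at least 10 and with the gene body alone. For a median the limit was the SD between the values of each replicate alone. Replicate 1 alone gave the same medians as the joined regions. For the medians, the move with replicate 2 alone was therefore fixed by this rule. With 1 replicate left out the medians were 1 to 3 for all 27 genes, 1 to 2 for synthesis genes, 2.5 to 4.5 for regulators, 2 to 3 for transport genes and 1 to 2 for all other genes, and 3 to 6 of the 27 genes had none. With −log10 q of at least 10 they were 0.5 for synthesis genes, 1 for regulators, 1 for transport genes and 0 for all other genes, with 12 genes having none. With the gene body alone they were 0 for synthesis genes, 2.5 for regulators, 2 for transport genes and 0 for all other genes, with 14 having none. With 100 kb on each side they were 6 for all 27 genes, 3.50 for synthesis genes, 7 for regulators, 7 for transport genes and 4 for all other genes, with 0 having none. Without its first base the sterol regulatory element was found in 2 synthesis promoters in place of 1, and in 3 of all searched in place of 1. A stricter list holds fewer regions, and a different window covers a different length, by construction. No paired analysis was possible because there is 1 group. Distal pileups as low as 12 counts give wide intervals.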

Other observations

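In the windows of the 27 genes, 94 of 100 regions of replicate 1 (94%) were also open in replicate 2, against 86.7% of all regions of that list. Of 127 regions of replicate 2 in the same windows 93 (73.2%) were also open in replicate 1, against 73.5% of that list. The windows hold the promoters of all 27 genes, with a median fold enrichment of 12.7 in replicate 1, against 5.58 over its whole list. The shares thus compare unlike mixes of regions. The 6 regions found in replicate 1 alone reached a fold enrichment of 4.62, and the 34 found in replicate 2 alone reached 7.74.

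Motifs of factors active in T cells were looked for, in either orientation, in the 200 bp around the summits of 44 distal regions, those off chromosome 18. The AP-1 motif TGANTCA was present in 13 (29.5%), against 26.8% of 24057 other distal regions. The RUNX motif TGTGGT was present in 12 (27.3%), against 22.3%, and the NFAT motif TGGAAA in 10 (22.7%), against 16.2%. The GATA motif AGATAA was present in 4 (9.09%), against 11.2%. These shares were not tested.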
